A study of Rattus norvegicus with 36 samples.

Results

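The report compares H9C2 cells that received the Trim A isomiR of miR-125b with H9C2 cells that received the Plus A isomiR, both kept in normoxia. Its members are the 3 Trim A and the 3 Plus A libraries of the normoxic arm, 6 of the 36 libraries of the series, and they were chosen by their treatment label alone. H9C2 is a rat cardiac myoblast line, so every library came from a single line. Per the study's methods, hypoxic cells stood in DMEM of low glucose without serum and normoxic cells in fresh DMEM as usual, so wherever hypoxia is set beside normoxia, oxygen, serum and glucose cannot be told apart. A mimic was given at 25 nmol/L for 24 h, normoxia or hypoxia followed for another 24 h, and poly-A RNA was sequenced without strand information. The Trim A cells (titled Trim 1 in the labels) received miR-125b without its last A, and the Plus A cells (titled miR-125b A) received miR-125b with an A added to that end. All 6 libraries thus carried a transfected miR-125b mimic, and the mimic control cells were not part of the comparison. The labels do not say that replicates came from separate cultures, so p-values here measure the spread between these libraries, which may be technical. The comparison asks whether the 3′ end of the miR-125b mimic alone goes with a different transcriptome in cells that were not deprived of oxygen.

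MicroRNAs are short RNAs that guide Argonaute proteins to mRNAs, mainly through pairing of the seed near the 5′ end, and lower the stability and translation of those mRNAs. IsomiRs are length or sequence forms of a microRNA that arise through alternative cleavage, trimming or tailing. Forms that differ at the 3′ end only keep the seed, but the 3′ end can alter loading, stability and additional pairing. miR-125b is abundant in heart and muscle and is known for lowering pro-apoptotic mRNAs.

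The mimic sequences are shown because the 2 groups differ in nothing else that the labels give. The canonical sequence is rno-miR-125b-5p from RefSeq (GRCr8, chr11:29732588-29732609, plus strand), and the 2 isomiRs were written from it as the labels describe them. Capitals mark the seed, bases 2 to 8 from the 5′ end.
miR-125b: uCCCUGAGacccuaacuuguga
Plus A: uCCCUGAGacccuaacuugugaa
Trim A: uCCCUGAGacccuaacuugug
The seed and all bases of the 21-base Trim A are shared with the 23-base Plus A, which carries 2 more A at its 3′ end.

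The 6 libraries held 28361216 to 30101137 counts, a narrow range of depth. Levels are given as CPM, counts scaled to a common library total, after TMM scaling, a correction for composition, and none of them is per gene length, so levels are compared within a gene. Myoblast identity was checked on marker genes. Among markers of myoblasts, Myod1 lay at 131 to 151 CPM, Cdh15 at 501 to 623 CPM and Ncam1 at 522 to 600 CPM. Myog, Tnnt2, Acta1, Cav3 and Dmd lay between 9.92 and 65.9 CPM. Des was at 1.9 to 3.49 CPM only, Actc1 at or below 0.592 CPM, and Myf5 and Myf6 at or near 0. Fibroblast genes were also abundant, with Col1a1 at 24400 to 27600 CPM and Vim at 2650 to 3010 CPM, while Pdgfra stayed at or below 0.879 CPM. Of 9 cardiomyocyte markers, Gata4 was at 14.0 to 17.0 CPM, Pln at 5.01 to 8.98 CPM, Tnni3 at 1.17 to 1.46 CPM and Nkx2-5 at 0.452 to 1.03 CPM, and Myh6, Nppa, Nppb, Ryr2 and Tbx5 stayed at or below 0.403 CPM. Of the endothelial markers, Flt1 was at 15 to 17 CPM and Tek at 0.899 to 1.53 CPM, Vwf, Tie1 and Erg stayed at or below 0.242 CPM, and Pecam1, Cdh5 and Kdr were not matched by name. The 7 blood cell markers stayed at or below 1.61 CPM, with Ptprc at or below 0.142 CPM, and the 6 epithelial markers at or below 0.251 CPM. No marker of these 4 lists passed the test described below, with or without Plus A 1.

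The library Plus A 1 stood apart from Plus A 2 and 3 in a set of genes. Cav1, the caveolar coat protein caveolin 1, was at 274 CPM in Plus A 1 and at 102 and 102 CPM in Plus A 2 and 3. The same gene was at 106 CPM in miR-125b 1 and at 290 and 270 CPM in miR-125b 2 and 3, so the odd library of each group lay at the level of the other group. Gpd1l, a glycerol-3-phosphate dehydrogenase family gene, was at 32.5 CPM in Plus A 1 against 14.6 and 14.3 CPM, and at 16.1 CPM in miR-125b 1 against 36.8 and 32.6 CPM. Tmem8c, the myoblast fusion factor myomaker, was at 10.6 CPM in Plus A 1 against 24.7 and 23.8 CPM, and at 25.6 CPM in miR-125b 1 against 11.2 and 10.5 CPM. Of 9440 genes at 5 CPM or more in which Plus A 2 and 3 lay close together, 17 had Plus A 1 at least 2-fold away and 191 at least 1.41-fold away. In 148 of those 191 genes miR-125b 2 and 3 lay nearer to Plus A 1, and miR-125b 1 nearer to Plus A 2 and 3. All 3 Trim A libraries lay nearer to Plus A 1 in 127 of the 191. Whether Plus A 1 and miR-125b 1 were exchanged was not tested, and the labels were kept as given. An exchange would change each Plus A and miR-125b value that includes these libraries.

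Other genes in this set followed no such exchange. The splicing factor gene Wbp11 was at 45.9 CPM in Plus A 1 against 7.56 and 7.33 CPM, and ranged from 22.9 to 44.1 CPM across Trim A. Hprt1, a purine salvage enzyme, was at 0.924 CPM in Plus A 1 against 8.89 and 9.23 CPM, and at 0.592 to 1.10 CPM in Trim A. AC141521.2, Cd151, Hand2, Tlk1 and Eno2 complete the 10 genes in which Plus A 1 lay farthest out, and in AC141521.2, Hand2, Tlk1 and Eno2 the 3 Trim A libraries were themselves spread more than 2-fold. The distance between libraries over all genes (root mean square of log2 CPM differences) from Plus A 1 was 0.44 to Plus A 2 and 3, 0.437 to Trim A and 0.393 to miR-125b 2 and 3. The same distance was 0.385 between Plus A 2 and 3. Every result below is therefore given with all 6 libraries and, where the value matters, without Plus A 1.

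**Figure D1:**
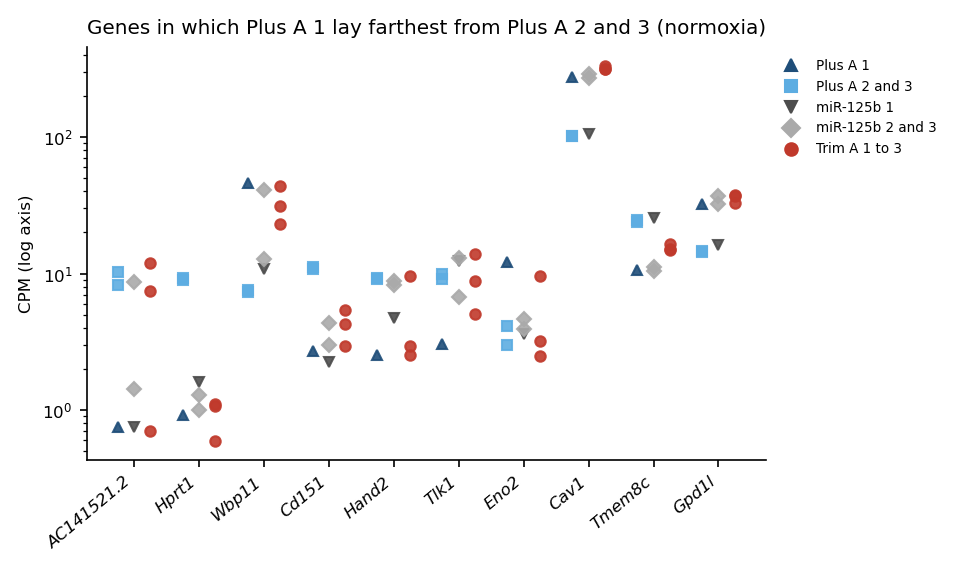
CPM (log axis) in each normoxic library for the 10 genes in which Plus A 1 lay farthest from Plus A 2 and 3, with miR-125b and Trim A libraries beside them. In Cav1, Tmem8c and Gpd1l, Plus A 1 sits with miR-125b 2 and 3, and miR-125b 1 sits with Plus A 2 and 3.

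Trim A and Plus A cells differed mainly in genes that were higher with Trim A. A gene was called when its adjusted p was under 0.05 (edgeR's quasi-likelihood test, Benjamini-Hochberg) and its fold change was at least 1.5, and it is said to have passed when the adjusted p alone was met. Of 14739 genes tested, 176 were called higher (1.19%) and 43 lower (0.292%) in Trim A, so 80.4% of the calls were higher. At any fold, 596 genes rose (4.04%) and 277 fell (1.88%). Most differences were small, with a median fold of 1.6 among the genes called higher and 1.71 among those called lower, and 22 and 12 genes reached 2-fold. The 95% interval of the fold change lay within 1.5-fold for 9902 genes (67.2%), and 4618 genes were neither called nor bounded so closely.

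Fewer genes were called with Plus A 1 than without it. Without it, 455 genes were called higher (3.04%) and 138 lower (0.922%) of 14970 tested, and 170 of the 176 and 42 of the 43 were among them. Leaving out any other library left 27 to 42 genes higher and 8 to 11 lower, with 22 and 6 called in every such fit.

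**Figure D2:**
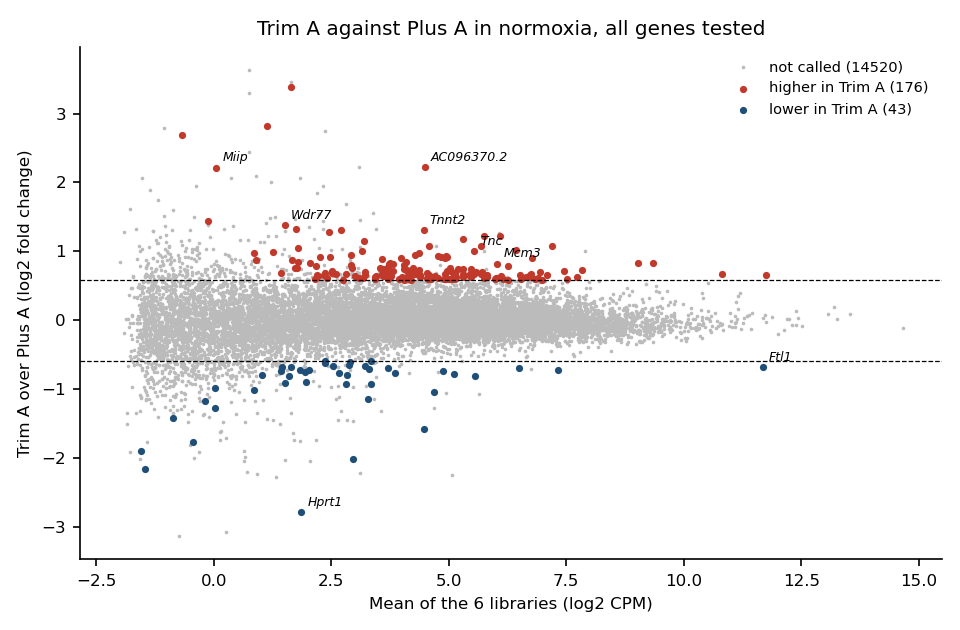
Log2 fold change of Trim A over Plus A against the mean log2 CPM of the 6 libraries, 1 point per gene tested, with dashed lines at 1.5-fold. The 176 genes called higher outnumber the 43 called lower, and most called genes lie close to the dashed lines.

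Genes called lower are given by the size of their change, without a theme tested. Uchl1, a ubiquitin hydrolase best known from neurons, was at 7.58, 6.16 and 7.40 CPM in Trim A against 9.60, 14.9 and 15.5 CPM in Plus A, with Plus A 1 nearest to Trim A. Tubb3, a neuronal beta tubulin, was at 11.4, 9.08 and 11.6 CPM against 14.6, 20.1 and 19.6 CPM. L1cam, a cell adhesion molecule of neurons, and Mok, a kinase of the cilium, fell by 0.75 and 0.76 on the log2 scale at low levels of at most 5.64 and 8.53 CPM. Cby3, Catip and Ctrb1 fell by 1.01, 0.91 and 0.89 from levels of at most 6.12 CPM. AC128792.1, annotated as a microRNA gene, and Ftl1l1, a copy of the ferritin light chain gene that can share reads with Ftl1, fell by 0.81 and 0.79. These 8 lower genes named beside Uchl1 had adjusted p-values of 0.0184 to 0.0482 (edgeR). Uchl1 and each of the 8 were called in 1 of the 6 fits that left out a library, the fit without Plus A 1. Hprt1 was also called (log2 fold change -2.78, adjusted p = 0.0491), but Plus A 1 lay inside the Trim A range and the call rested on Plus A 2 and 3.

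Genes called higher were named by the same rule. Plat, the tissue plasminogen activator, was at 42.6, 68.6 and 52.8 CPM in Trim A against 32.8, 19.6 and 20.4 CPM in Plus A. Plus A 1 was the Plus A library closest to Trim A. The log2 fold change was 1.17 with a standard error of 0.21 (adjusted p = 0.0199, edgeR), and it became 1.45 without Plus A 1.

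Tnnt2, the cardiac troponin T of the thin filament (chromosome 13, 52662996 to 52680990, plus strand, in the coordinates of the deposited table), was at 23.9, 45.3 and 25.0 CPM in Trim A against 9.92, 12.5 and 15.7 CPM in Plus A. Trim A 2 stood above the other Trim A libraries, yet no library of one group entered the range of the other. The log2 fold change was 1.30 (95% interval 0.74 to 1.87, adjusted p = 0.0232, edgeR), and it remained called in 1 of the 6 fits that left out a library. Usp15, a deubiquitinase, was at 94.2, 93.9 and 99.1 CPM against 23.9, 48.2 and 50.9 CPM, and here Plus A 1 was the library farthest from Trim A. Its log2 fold change of 1.22 (adjusted p = 0.0195) became 0.95 without Plus A 1.

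AC096370.2, a protein-coding gene on chromosome 1, was at 25.6, 46.4 and 38.9 CPM against 9.24, 6.52 and 8.09 CPM, a log2 fold change of 2.22 (adjusted p = 0.00374), and was called in all 6 fits. In the miR-125b group it ranged from 6.20 to 56.7 CPM. Miip, Wdr77, Adamts16, Il33 and Lum led at lower levels, with log2 fold changes of 1.28 to 2.21 and adjusted p-values of 0.0161 to 0.0425. Il33 is an alarmin cytokine stored in nuclei, Lum is a collagen-binding proteoglycan and Adamts16 a secreted metalloprotease. Each of the 5 was at or below 13.2 CPM in every library and was called in 1 of the 6 fits.

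**Figure D3:**
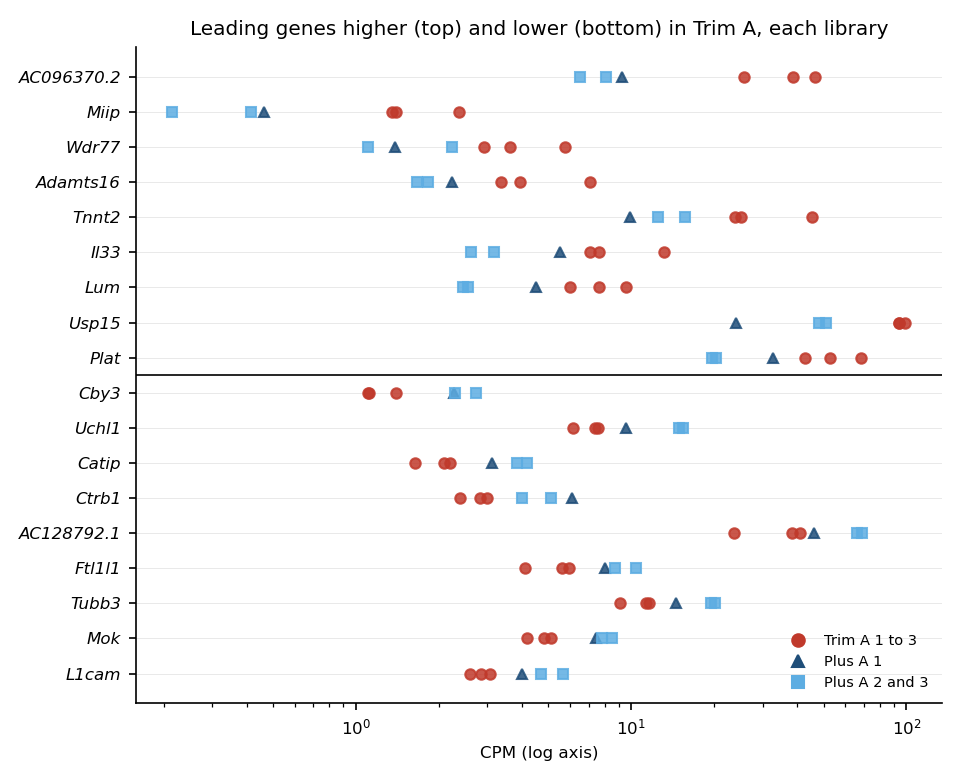
CPM (log axis) in each library for 9 leading genes called higher and 9 leading genes called lower in Trim A. The rule that chose these 18 genes required groups that do not overlap. Plus A 1 is the Plus A library nearest to Trim A in Plat, Uchl1 and Tubb3.

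Cell cycle genes were higher with Trim A as a group. In bulk RNA, more dividing cells and more of these transcripts per cell cannot be told apart. Of 28 cell cycle genes tested, 9 were called higher and 22 rose, none fell, and all 28 had a positive log2 fold change with a median of 0.53, beside -0.00 over all genes tested. Of all genes tested, 1.19% were called higher, 4.04% rose and 1.88% fell. All Trim A libraries lay above all Plus A libraries in 26 of the 28, beside 15.6% of all genes tested. Members that passed without being called, and members of the added lists, are named below as examples chosen after their values were seen.

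Mki67, the proliferation marker Ki-67, was at 272.7, 286.3 and 291.8 CPM in Trim A against 209.9, 147.8 and 156.8 CPM in Plus A. Mcm3, a subunit of the replicative helicase, was at 85.7, 86.3 and 78.8 CPM against 59.8, 41.4 and 40.7 CPM. Ccne2, a cyclin of S-phase entry, was at 30.9, 27.9 and 28.3 CPM against 20.2, 18.0 and 16.9 CPM. In all of these genes Plus A 1 was the highest of the Plus A libraries and still lay below every Trim A library. The log2 fold changes were 0.73 for Mki67 (standard error 0.12, adjusted p = 0.0146), 0.82 for Mcm3 (standard error 0.13, adjusted p = 0.015) and 0.66 for Ccne2 (standard error 0.087, adjusted p = 0.00837), and Ccne2 was called in all 6 fits. The other called members were the replication licensing factor Cdt1 at 0.75, Aurkb at 0.70, Mcm5 at 0.66, Cenpf at 0.62, Bub1 at 0.60 and Top2a at 0.59 on the log2 scale. Cdt1 was called in 2 of the 6 fits that left out a library, and Mki67, Mcm3 and these other 5 in 1 of the 6, the fit without Plus A 1. Cdk1, the mitotic kinase, rose by 0.52 from 92.1 to 101.3 CPM in Plus A to 132.2 to 140.5 CPM in Trim A (adjusted p = 0.00467), below the fold threshold.

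The 6 members that did not pass were Birc5 at 0.43 (adjusted p = 0.0631), Mcm7 at 0.47 (0.0651), Tyms (0.0749), Pcna at 0.31 (0.0881), Ccne1 at 0.14 (0.196) and the growth-factor-responsive cyclin Ccnd1 at 0.08 (0.679). The summed level of the list was 3948, 3765 and 3829 CPM in Trim A, and 3387, 2652 and 2577 CPM in Plus A. It was 2677, 3407 and 3374 CPM in miR-125b 1, 2 and 3, so the sum of Plus A 1 lay at that of miR-125b 2 and 3 and the sum of miR-125b 1 at that of Plus A 2 and 3. Without Plus A 1, 26 members rose and 18 were called, with a median of 0.68, beside 10.3% of all genes that rose and 3.04% called.

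**Figure D4:**
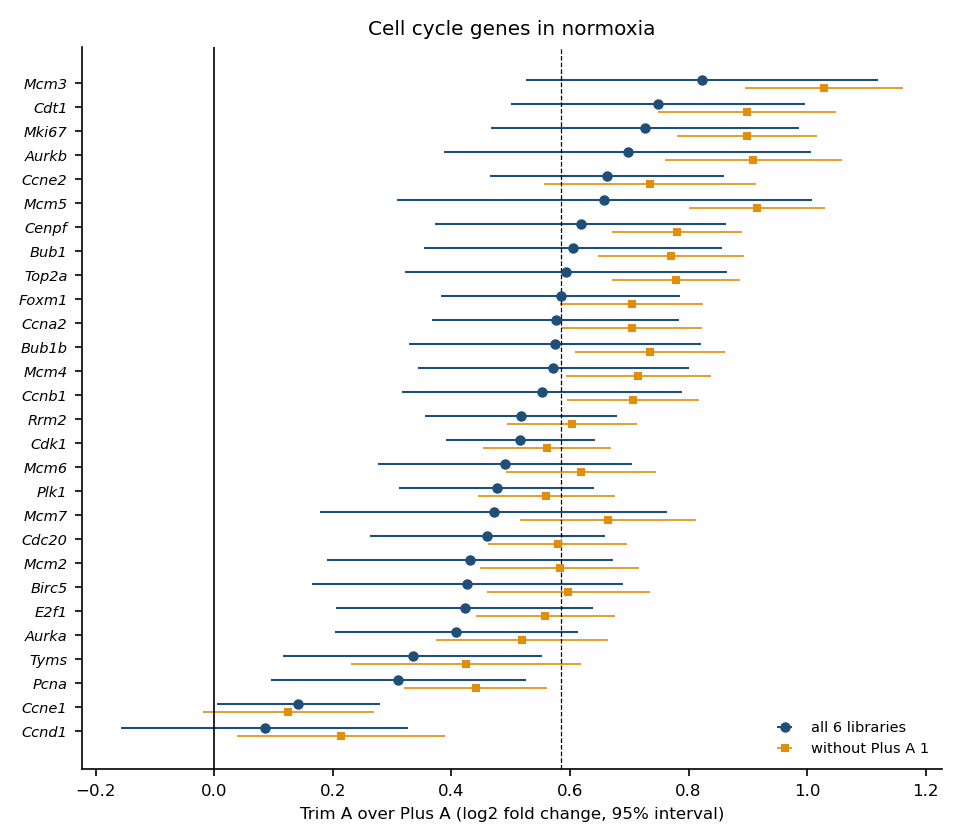
Log2 fold change of Trim A over Plus A with its 95% interval for the 28 cell cycle genes, with all 6 libraries (circles) and without Plus A 1 (squares), and a dashed line at 1.5-fold. All 28 values are above 0 with all 6 libraries, and 26 of them pass the test without Plus A 1.

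Further groups around division followed the same direction. These 3 lists were put together after the called genes had been seen, so their counts only describe where those calls lie. Beside them, 4.04% of all genes tested rose and 1.19% were called higher. Of 46 kinetochore and spindle genes tested, 39 rose and 26 were called, with a median log2 fold change of 0.60. Cep55, which acts at the abscission of daughter cells, was at 41.1, 39.9 and 39.7 CPM in Trim A against 23.3, 19.6 and 20.6 CPM in Plus A, so the groups lay far apart for their spread. Its log2 fold change was 0.93 with a standard error of 0.078 (adjusted p = 0.0031, edgeR). It was called in all 6 fits, as were Nek2, Hmmr, Kif20b and Spag5, which serve the centrosome and the spindle. Of 36 DNA replication genes, 16 rose and 10 were called, with Gins3 of the replicative helicase at 0.88 and Dscc1 of sister chromatid cohesion at 0.84. Of 28 genes of homologous recombination and Fanconi repair, 11 rose and 8 were called, among them Bard1 at 0.90, Fancd2 at 0.72 and Brca1 at 0.61. With all 6 libraries none of their members fell by edgeR or by DESeq2, and none was lower at an unadjusted p under 0.05. Without Plus A 1, 44 kinetochore and spindle genes rose and 1 fell, and 26 DNA replication genes rose and 1 fell. In the recombination and Fanconi list 20 rose and 0 fell. Of all genes, 10.3% rose and 7.65% fell without Plus A 1.

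Because these members moved together, their promoters were read for elements known from cell cycle genes. The cell cycle genes homology region (CHR, TTTGAA) is bound by the DREAM and MuvB complexes, and the CCAAT box by NF-Y. Promoters from RefSeq (GRCr8, 250 bases before to 50 after the start) were searched on both strands, and both motifs were counted separately. TTTGAA occurred in 8 of the 15 promoters found for the 22 cell cycle members that passed (53.3%), in 40 of the 124 found for genes called higher (32.3%) and in 1 of the 20 found for genes called lower (5.0%). It occurred in 1073 of 9208 promoters of genes tested (11.7%) and in 4962 of all 27457 promoters (18.1%). CCAAT occurred in 66.7%, 47.6% and 35.0% of the same groups, beside 37.7% of genes tested. Windows of 30 bases around the element are shown for 6 members from the division lists, with the element in capitals in the direction of the gene and its reverse form TTCAAA where it lay on the other strand.
Mki67 (chr1:199952693-199952722, minus strand): ttagcgccagaaTTTGAAccgccgttttcg
Cdk1 (chr20:19265265-19265294, plus strand): taccgcggtgagTTTGAAactgctggcact
Cenpf (chr13:103760867-103760896, minus strand): ggccgcgggcagTTTGAAtcgctcgtgctg
Bub1b (chr3:126017051-126017080, plus strand): ggagacgttaaaTTTGAAagttggcggccc
Top2a (chr10:84473098-84473127, minus strand): gctagatgaatgTTCAAAtgaaactaggga
Cep55 (chr1:245245304-245245333, plus strand): gcagccgcgggaTTCAAActcccggaagcg
The element shown began at -117 in Mki67, -16 in Cdk1, 2 in Cenpf, -4 in Bub1b, -22 in Top2a and -47 in Cep55, counted from the start site. A further match, not shown, began at -99 in Mki67 and at -72 in Cdk1. A match is a description of the letters and not a measured binding site.

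Extracellular matrix genes were called higher in part of their list. Of 33 genes tested, 6 were called higher, 7 rose and 1 fell, with a median log2 fold change of 0.11. Over all genes 1.19% were called higher, 4.04% rose and 1.88% fell. Without Plus A 1, 10 were called higher, 13 rose and 1 fell, beside 3.04%, 10.3% and 7.65% of all genes. Tnc, the matrix glycoprotein tenascin C, was at 55.0, 73.1 and 57.2 CPM in Trim A against 31.5, 29.5 and 31.3 CPM in Plus A. Postn, the matricellular protein periostin, was at 764, 1014 and 717 CPM against 475, 447 and 480 CPM. In both, the Plus A libraries including Plus A 1 were tight and Trim A 2 was the highest library. The log2 fold changes were 1.01 for Tnc (standard error 0.10, adjusted p = 0.00391) and 0.83 for Postn (standard error 0.11, adjusted p = 0.00839), and they were 1.02 and 0.85 without Plus A 1.

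Col1a2, a chain of type I collagen, was at 4719, 3818 and 4103 CPM against 2439, 2783 and 2784 CPM, a log2 fold change of 0.66 (adjusted p = 0.00653). The lowest Trim A library thus stood clear of the highest Plus A library, although miR-125b 1 reached 3947 CPM with its group mates at 2139 and 2569 CPM. The crosslinking enzyme Loxl2 (0.72), the microfibrillar collagen chain Col6a3 (0.91) and Lum (1.28) were the other called members. Lox rose by 0.26 and Mmp14, a membrane-bound collagenase activator, fell by 0.32 from 489.5 to 513 CPM in Plus A to 401.5 to 402.8 CPM in Trim A (adjusted p = 0.00982). Of the 9 fibroblast markers 3 rose, namely Col1a2, Postn and Pdgfrb (0.28), of which the former 2 are also matrix genes. The summed level of the fibroblast markers was 42440 to 44390 CPM in Trim A and 41070 to 43980 CPM in Plus A, overlapping ranges, and their part in the matrix result was not tested.

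Among 25 sarcomere and muscle genes tested, Tnnt2 and the slow skeletal troponin T gene Tnnt1 were called higher, and the tropomyosin Tpm1 rose as well. Tnnt1 was at 19.3, 25.5 and 19.4 CPM in Trim A against 9.74, 14.4 and 15.1 CPM in Plus A (log2 fold change 0.71, adjusted p = 0.0429). Tpm1 was at 1470, 1634 and 1431 CPM against 1067, 1150 and 1229 CPM (0.40, adjusted p = 0.017). Over all genes 1.19% were called higher and 4.04% rose. The list had a median of 0.33, 20 of 25 members were positive, and 9 reached an unadjusted p under 0.05. DESeq2 passed 6 members as higher and 0 as lower. Without Plus A 1, 7 members of the list rose and 1 fell, beside 10.3% and 7.65% of all genes. The myogenic factors did not pass by edgeR in 7 tested, with 3 at an unadjusted p under 0.05 and 2 passing by DESeq2. Without Plus A 1, 2 of them rose, beside 10.3% of all genes. Myog, which drives myoblast differentiation, was at 47.5, 66.0 and 52.9 CPM against 45.8, 36.5 and 33.7 CPM (0.52, adjusted p = 0.0576), and without Plus A 1 it was called at 0.66 (adjusted p = 0.00574), whereas Myod1 was level at 0.05.

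Genes of growth arrest and the damage response were lower with Trim A in several members, each by less than 1.5-fold. Of 21 such genes tested, 8 fell, beside 1.88% of all genes, and none was called or rose by edgeR, with a median of -0.13. Without Plus A 1, 9 fell and 1 was called higher, beside 7.65% and 3.04% of all genes. DESeq2 had 9 falling and none rising, and 3 members had a positive change at an unadjusted p under 0.05. Cdkn1a, the cyclin-dependent kinase inhibitor p21, was at 297.0, 291.2 and 302.7 CPM in Trim A against 389.1, 415.0 and 412.7 CPM in Plus A. Bax, a pore-forming inducer of apoptosis, was at 133.6, 140.1 and 138.8 CPM against 178.1, 179.3 and 168.9 CPM. All 3 Trim A libraries lay under all 3 Plus A libraries, and Plus A 1 was no exception. The log2 fold changes were -0.45 for Cdkn1a (standard error 0.049, adjusted p = 0.00467) and -0.35 for Bax (standard error 0.050, adjusted p = 0.0103). The ubiquitin ligase Mdm2 fell by 0.45, the death receptor Fas by 0.45, the stress sensor Sesn2 by 0.49, Ccng1 by 0.30, Phlda3 by 0.30 and Gadd45a by 0.26.

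The integrated stress response, in which ATF4 raises amino acid and stress genes, had 5 of 22 members fall and none rise, with a median of -0.19. Over all genes 1.88% fell and 4.04% rose. At an unadjusted p under 0.05, 1 member was higher and 12 lower, and DESeq2 passed 10 lower and none higher. Ddit3, the transcription factor CHOP, was at 54.7, 55.0 and 55.8 CPM in Trim A against 74.6, 77.4 and 72.3 CPM in Plus A (log2 fold change -0.44, adjusted p = 0.0056). Trib3 fell by 0.45 and the serine pathway enzymes Phgdh and Shmt2 by 0.31 each. Without Plus A 1, 13 members of the list fell and 1 rose, beside 7.65% and 10.3% of all genes.

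Ftl1, the ferritin light chain, was among the most abundant genes called. It was at 2713, 2415 and 2453 CPM in Trim A against 3769, 4228 and 4126 CPM in Plus A, and the groups did not overlap. The difference was -0.68 on the log2 scale, with a standard error of 0.060 and an adjusted p of 0.0031 (edgeR), and was called in all 6 fits. Ferritin stores iron, and of the 9 iron genes tested (a list put together after Ftl1 was seen) the heme-degrading Hmox1 also fell, by 0.30, while in hypoxia it was higher with Trim A. Cytosolic ribosomal protein genes, also an added list, leaned lower by small amounts, with 80 of 84 identifiers negative and a median of -0.15. Of these genes 9 fell, beside 1.88% of all genes, among them Rpl30 at -0.37. Without Plus A 1, 28 fell, beside 7.65% of all genes. None of them was called or rose by edgeR or by DESeq2, and 45 had a negative change at an unadjusted p under 0.05. Many ribosomal protein genes have near-identical processed copies, so single values are uncertain.

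Of 24 cholesterol synthesis and uptake genes, 4 rose, beside 4.04% of all genes, and 23 were positive, with a median of 0.17. Without Plus A 1, 5 of them rose and 0 fell, beside 10.3% and 7.65% of all genes. The sterol carrier Stard4 was called at 0.68, and Hsd17b7 and Sc5d rose by 0.53 and 0.32. Among 22 immediate early genes only Jun passed, at 143.6, 134.5 and 133.7 CPM against 108.4, 78.0 and 86.8 CPM (0.59, adjusted p = 0.0192). Interferon-stimulated genes showed 1 rise (Stat2, 0.30) and 1 fall (Tap1, -0.42) in 25 tested. Of 30 genes of small RNA biogenesis only Dgcr8, a partner of Drosha, passed, and it rose by 0.28. Over all genes tested 4.04% rose and 1.88% fell, so by edgeR with all 6 libraries the counts of both lists lie near those shares. In the small RNA list 7 were higher and 4 lower at an unadjusted p under 0.05, and DESeq2 passed 5 higher and 1 lower. Without Plus A 1, 7 small RNA genes rose and 1 fell, and 3 interferon-stimulated genes rose and 1 fell. Of all genes, 10.3% rose and 7.65% fell in that fit. Targets of HIF had no member pass by edgeR in 28 tested, with 6 lower at an unadjusted p under 0.05 and 1 lower by DESeq2. The 11 mitochondrially encoded genes tested also had none pass by either tool, and 1 at an unadjusted p under 0.05.

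Genes that the study itself assayed moved in both directions and mostly by little. Besides Tnnt2, the apoptosis effector Bak1 rose by 0.35 from 34.4, 40.9 and 41.8 CPM in Plus A to 47.0, 52.7 and 48.8 CPM in Trim A (adjusted p = 0.0441). The initiator caspase gene Casp2 rose by 0.37 (adjusted p = 0.0326), and Bax fell as given above. Among the differences that did not pass were 0.21 for Traf6, 0.15 for Klf13, 0.12 for Dram2, 0.02 for Hif1an, 0.02 for Bcl2l11, -0.07 for Actb and -0.10 for Bmf, each with its 95% interval inside 1.5-fold. Tnfrsf1b, the TNF receptor 2, was at 0.870 to 1.10 CPM against 0.502 to 0.711 CPM, and its interval of -0.02 to 1.25 leaves the change unresolved at this level. Of 19 reported miR-125b targets tested, none passed by edgeR, 6 were higher and 1 lower at an unadjusted p under 0.05, and DESeq2 passed 2 higher and 1 lower. Without Plus A 1, 3 rose and 1 fell by edgeR, beside 10.3% and 7.65% of all genes. With all 6 libraries the median was 0.12 and 14 of the 19 had an interval inside 1.5-fold. The list holds genes reported for the canonical form, with no tested site for either isomiR.

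Cav1 had the largest difference among 9 caveolar genes. It was at 334, 314 and 314 CPM in Trim A, all above Plus A 1 at 274 CPM and far above Plus A 2 and 3. Its log2 fold change was 1.01 with a standard error of 0.33 (adjusted p = 0.101), and it was called at 1.65 without Plus A 1. The other caveolar genes Cav2, Cav3, Ptrf, Sdpr, Prkcdbp, Murc, Ehd2 and Pacsin2 lay between -0.23 and 0.13. With all 6 libraries none of them passed by edgeR, and all had intervals inside 1.5-fold. DESeq2 passed 1 caveolar gene as lower. Without Plus A 1, 1 caveolar gene fell by edgeR, beside 7.65% of all genes. Further genes were called only when Plus A 1 was left out. Prkar2a, a regulatory subunit of protein kinase A, went from 1.07 (adjusted p = 0.0542) to 1.59, and Gpd1l from 0.81 (adjusted p = 0.109) to 1.31. Cse1l, a nuclear export factor, was called either way and went from 1.09 to 1.54. Cav1, Prkar2a, Gpd1l and Cse1l were among the genes picked out because Plus A 1 lay at least 2-fold from Plus A 2 and 3. Their values without Plus A 1 reuse that choice and are a description. Wdr62 and Klk4 were called higher and Plg, Ccnt1, Evi2a, Krtap1-5, Smagp, Ubald1, Tbcb, Clip3 and Rn60_X_0713.4 lower without Plus A 1, the last 9 from levels of at most 16.2 CPM, where in Ubald1, Tbcb and Clip3 a single Plus A library carried the difference.

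Both isomiRs were also set against miR-125b, in comparisons that share their libraries with the one above. Against miR-125b in normoxia, Trim A had 54 genes called higher (0.367%) and 7 lower (0.0475%) of 14732 tested. Plus A had none called in either direction (0.0%) of 14781 tested by edgeR, with 404 at an unadjusted p under 0.05 and 1 called by DESeq2. With Plus A 1 and miR-125b 1 both left out, 53 genes were called higher (0.357%) and 113 lower (0.761%) in Plus A of 14856 tested. These libraries were left out after they were seen to lie at the level of the other group. That choice itself parts the groups, so the counts without them are a description. For Cep55 the log2 fold change was 0.73 in Trim A against miR-125b (adjusted p = 0.00414) and -0.19 in Plus A against miR-125b. In the same order the values were 1.05 (adjusted p = 0.00718) and 0.05 for Tnc, and for Tnnt2 1.39 (adjusted p = 0.0273) and 0.08. The genes had been named for their difference between Trim A and Plus A in the same libraries, so their values against miR-125b are a description.

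Hypoxia gave a separate set of 6 libraries for the same contrast. There 273 genes were called higher (1.81%) and 85 lower (0.563%) of 15104 tested. Of the 176 genes called higher in normoxia, 175 were tested in hypoxia, 152 had the same sign, 77 were called higher there (44.0%) and 3 were called lower, with a median log2 fold change of 0.65. These 77 were 28.2% of the genes called higher in hypoxia. Of the 43 genes called lower, 42 were tested, 24 had the same sign and 5 were called lower (11.9% of the 42 and 5.88% of the genes called lower in hypoxia), with a median of -0.12. The shares of 44.0% and 11.9% were not tested against each other. Without hypoxic Trim A 1, a library on which the interaction below depends, 84 of the genes called higher were called higher (48.0%) and 13 lower, beside 4.17% and 4.93% of all genes, and of the genes called lower 5 were called lower (11.9%) and 3 higher.

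The cell cycle list had the same direction in hypoxia, where 21 of its members rose (3.09% of all genes did), 18 were called and none fell, with a median of 0.81 against 0.53 in normoxia. Its summed level was 1234, 1302 and 1270 CPM in hypoxic Trim A and 836, 809 and 823 CPM in hypoxic Plus A. The hypoxic sums were thus well under the normoxic sums in both groups while Trim A stayed the higher. Cep55 was at 9.38, 12.6 and 9.49 CPM against 5.44, 3.58 and 4.22 CPM in hypoxia (log2 fold change 1.23, adjusted p = 0.00962). Cav1 was at 262, 313 and 304 CPM against 95.3, 88.9 and 89.2 CPM (1.67, adjusted p = 0.000224), with all 3 hypoxic Plus A libraries near the level of the normoxic Plus A 2 and 3.

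For the other lists, the counts in hypoxia differed with and without hypoxic Trim A 1. The growth arrest and damage response list had 1 member higher and none lower by edgeR, with 2 higher and 3 lower at an unadjusted p under 0.05, 2 higher and none lower by DESeq2 and a median of -0.06, and without that library 2 rose and 4 fell, beside 17.7% and 17.4% of all genes. The integrated stress response list had none pass by edgeR, with 5 higher and 2 lower at an unadjusted p under 0.05, 1 higher by DESeq2 and a median of 0.11, and without that library 8 rose and 3 fell. No member of either list, and no ribosomal protein gene, had its interaction with oxygen called.

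The matrix and ribosomal lists set hypoxic Trim A 1 apart. Summed matrix levels were 69830 CPM in hypoxic Trim A 1, 41090 and 44110 CPM in Trim A 2 and 3, and 66970 to 69460 CPM in hypoxic Plus A. Summed ribosomal levels were 37430 CPM in Trim A 1, 54990 and 51230 CPM in Trim A 2 and 3, and 35120 to 38560 CPM in Plus A, so in both sums Trim A 1 lay at the level of Plus A. In the extracellular matrix list 2 genes fell (1.26% of all genes did) and none rose by edgeR, with a median of -0.29, while 13 were lower and none higher at an unadjusted p under 0.05 and DESeq2 had 5 lower. Without Trim A 1, 24 matrix genes fell and 1 rose, with a median of -0.55, beside 17.4% and 17.7% of all genes that fell and rose. Of the ribosomal protein genes none passed by edgeR, 54 were higher at an unadjusted p under 0.05 and 27 higher by DESeq2, with a median of 0.38. Without Trim A 1, 65 of the 84 rose and 17 were called higher, with a median of 0.53, beside 17.7% and 4.17% of all genes.

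The difference between oxygen conditions was tested as an interaction over the 12 libraries, and it holds the change of medium as well. Of 15559 genes, the Trim A difference was more positive in hypoxia for 4 (0.0257%) and more negative for 18 (0.116%), and 10 of these 22 were called in normoxia. Tnnt2 was higher with Trim A in normoxia but lower in hypoxia, at 28.7, 28.2 and 29.8 CPM against 45.0, 42.8 and 48.0 CPM, and its interaction was -1.96 (adjusted p = 0.0237). Postn was at 637, 605 and 618 CPM in hypoxic Trim A against 728, 726 and 662 CPM in hypoxic Plus A, with an interaction of -1.03 (adjusted p = 0.0223). Tnc was at 8.14, 4.65 and 4.86 CPM against 7.86, 8.72 and 8.62 CPM, with an interaction of -1.53 (adjusted p = 0.0347). Tnnt2 passed in hypoxia alone (-0.66, adjusted p = 0.0036), and Postn (-0.20) and Tnc (-0.53) did not. Abi3bp, Olfml2b and Itga4, of matrix and adhesion, also had a more negative difference in hypoxia. Nek2 went from 0.67 in normoxia to 1.35 in hypoxia, and Fam195a from -0.66 to 0.46. Hmox1 was at 907, 1046 and 1039 CPM in hypoxic Trim A against 655, 686 and 724 CPM in hypoxic Plus A (0.52, adjusted p = 0.0149), with an interaction of 0.82 (adjusted p = 0.0237).

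Calls of the interaction depended on single libraries. Without hypoxic Trim A 1 there were 684 and 785 calls, and without any 1 of the other 11 libraries 0 to 2 and 0 to 15. The interaction of Tnnt2 stayed between -2.15 and -1.60 over all settings (adjusted p 0.000104 to 0.0944), that of Postn between -1.13 and -0.86 (8.56e-08 to 0.0944) and that of Tnc between -1.83 and -1.39 (2.13e-07 to 0.118). Myog had a positive difference in normoxia that was called without Plus A 1 alone, fell by 0.50 in hypoxia (adjusted p = 0.00898), and had an interaction of -1.02 (adjusted p = 0.044).

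**Figure D5:**
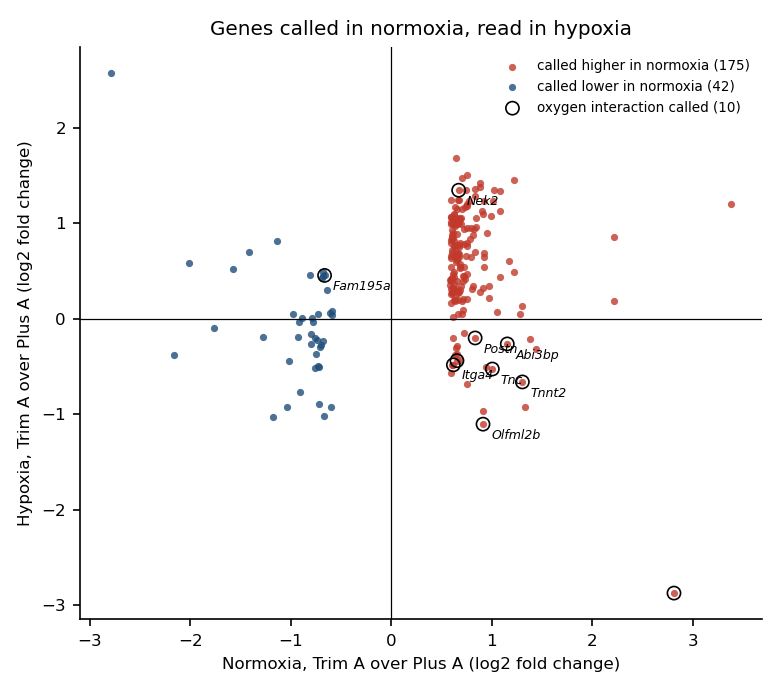
Log2 fold change of Trim A over Plus A in hypoxia against that in normoxia for the genes called in normoxia, with circles around the 10 genes whose oxygen interaction was called. Of the 175 genes called higher, 152 lie above 0 in hypoxia, while Tnnt2, Postn and Tnc lie below it.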

How the data were processed

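RNA was sequenced from H9C2 cells by a non-stranded poly-A method, so reads of overlapping antisense genes cannot be told apart. The authors deposited raw read counts per gene beside other columns; the submitters' processing notes name HISAT2 and StringTie, and the genome build is not given in the sources used here. Counts of 24 libraries were joined from 7 tables over 23621 genes, without conflicting values. Deposited FPKM values and the authors' fold changes and p-values were not used. The authors' mean normalised signal of mimic control and Plus A cells, which they deposited in a table of its own, was read for context and enters no test.

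Genes were tested with edgeR 4.0.16 (R 4.3.3; quasi-likelihood, TMM, filterByExpr) in the 6 libraries, without blocking, with DESeq2 1.42.0 among the alternatives. Same-numbered libraries did not deviate together (correlations -0.0117, 0.0114 and -0.00236), so the numbers were not taken as pairs. On simulated counts with 200 genes changed 2-fold, 73.4% were recovered and 6.61% of calls were false (14566 genes). Named genes were the 10 called genes of largest change in each direction (named symbol, mean of at least 1 CPM, no overlap), with and without Plus A 1, the genes the study assayed, caveolar genes, called members of the lists, and the 10 genes in which Plus A 1 lay farthest out. Members and lists were chosen with earlier results of these data known, and the lists called added were put together after the called genes were seen. A name held by several identifiers (305 names) was kept as separate genes. Some genes that these rules would name are not reported here.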

Additional observations from a re-analysis of the deposited data

Results flagged for a closer look

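Tnnt2 differed between oxygen conditions by a test of the interaction itself: Trim A over Plus A was 1.30 on the log2 scale in normoxia and -0.66 in hypoxia, an interaction of -1.96 (adjusted p = 0.0237, edgeR). Postn went from 0.83 to -0.20 (interaction -1.03, adjusted p = 0.0223) and Tnc from 1.01 to -0.53 (interaction -1.53, adjusted p = 0.0347). By the same test the interaction was 0.82 for Hmox1 (adjusted p = 0.0237), 0.68 for Nek2 (adjusted p = 0.049), 1.12 for Fam195a (adjusted p = 0.0449), -1.42 for Abi3bp (adjusted p = 0.049), -2.02 for Olfml2b (adjusted p = 0.0449), -1.10 for Itga4 (adjusted p = 0.049) and -1.02 for Myog (adjusted p = 0.044). These calls depended on single libraries. Without normoxic Plus A 2, the adjusted p was 0.0944 for Tnnt2, 0.0944 for Postn and 0.103 for Tnc (edgeR). Oxygen, serum and glucose changed together between these arms. Groups of 3 libraries were not tested for a single outlying library.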

How the results depend on the processing

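Counts of calls between Trim A and Plus A in normoxia moved more with the libraries than with the tool. Genes higher and lower in Trim A numbered 204 and 51 by DESeq2, 175 and 44 with DESeq2's size factors in edgeR, 207 and 49 without the filter on low counts, 197 and 54 with all 15 normoxia libraries, 22 and 12 at 2-fold, and 596 and 277 without a fold threshold. With the replicate block there were 181 and 27, and the correlations of same-numbered libraries give no sign of pairing. Leaving out 1 library gave 27 to 455 higher and 8 to 138 lower, the highest of each without Plus A 1, which adds calls although fewer libraries remain. On the 500 genes of highest variance, distances were 1.53 within Plus A, 1.54 within Trim A and 1.57 between them.

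The interaction gave 230 and 200 genes with a more positive and a more negative difference in hypoxia by DESeq2, 167 and 121 without the filter, 156 and 74 with the replicate block, and 0 to 684 and 0 to 785 on leaving out 1 library, the highest of each without hypoxic Trim A 1. Trim A against miR-125b gave 92 and 24 by DESeq2, 35 and 6 with the replicate block, and 15 to 74 higher and 4 to 16 lower on leaving out 1 library, where 16 lower was without miR-125b 1 and 4 lower and 15 higher without Trim A 2. Plus A against miR-125b gave 1 higher and 0 lower by DESeq2, 0 with the replicate block, and 0 to 4 higher and 0 to 3 lower on leaving out 1 library. With replicates 2 and 3 of both groups alone, an alternative chosen after the data were seen, it gave 53 and 113.

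For single named genes that were called, 266 alternatives kept the call and 174 kept the direction without it. Among uncalled ones, 34 alternatives gave a call and 15 turned the sign. On leaving out 1 library the values ran from -0.05 (without Plus A 2; -0.03 without Trim A 2) to 0.10 for Bcl2l11, from -0.03 (without Trim A 3 or Plus A 1) to 0.05 for Hif1an, from -0.01 (without Trim A 3; -0.00 without Plus A 1) to 0.06 for Cav3, from -0.05 to 0.01 (without Plus A 2) for Ptrf, from -0.66 to 0.61 for AC141521.2 (-0.66 without Trim A 1, -0.01 without Trim A 3, -0.46 without Plus A 1, and -0.10 with the replicate block), from -0.10 (without Trim A 3; -0.05 without Plus A 1) to 0.61 for Tlk1, and from -1.17 to 0.53 (without Plus A 1; 0.01 without Trim A 2) for Eno2. The causes were not tested. At this depth, genes below about 1 CPM carry wide intervals.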
